A study of Mus musculus with 4 samples.

Results

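The genes described here move cholesterol out of cells or keep it inside as lipid droplets. They are Abca1, Abcg1, Nr1h2, Nr1h3, Scarb1, Soat1 and Plin2, 7 of the 55357 genes in the count matrices, taken by symbol from a fixed list. The tissue was the ipsilateral hemisphere of wild-type mice with ischemic stroke, dissociated and read by single-cell RNA sequencing. All 4 groups received hydrogel microspheres in the infarct cavity on day 5 and were harvested on day 14, and each group is a single library. The group MAPS is named in the labels with no vesicles. The labels call the other groups IL-4 C1q EV+MAPS (IL-4/C1q EV below), UT EV+MAPS (UT EV below) and IL-1a TNFa C1q EV+MAPS (IL-1a/TNFa/C1q EV below), together the vesicle libraries, and do not spell out UT. Their microspheres carried extracellular vesicles, which the series design describes as derived from reactive astrocytes. The labels give no strain, no age and no number of animals per library, and healthy control mice were not analysed here. With 1 library per group nothing below has a replicate check, and group, animal, dissociation and run cannot be told apart.

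Abca1 and Abcg1 encode transporters that pass cholesterol and phospholipid from the cell to lipid-poor and to mature lipoprotein particles, respectively. Nr1h3 and Nr1h2 encode the liver X receptors alpha and beta, nuclear receptors that bind oxysterols with a retinoid X receptor as partner and switch on Abca1 and Abcg1. Scarb1 encodes a high-density lipoprotein receptor. Soat1 makes cholesteryl ester, the form in which spare cholesterol is stored, and Plin2 coats the lipid droplets that hold it. In brain lesions, phagocytes that take up myelin debris are known for carrying much cholesterol, which they export or store.

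The stretch of 250 bases before the start of Abca1 is printed because, of the 6 members with at least 50 UMIs, Abca1 differed most between the vesicle libraries in microglia, and because the liver X receptor element known from textbooks lies close to its start. The sequence is from RefSeq (GRCm38.p6), chr4:53159896-53160145 on the minus strand, written 5′ to 3′ along the gene. Capitals mark, in order, CACGTG and TGACCGNNNNTAACC.

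Abca1: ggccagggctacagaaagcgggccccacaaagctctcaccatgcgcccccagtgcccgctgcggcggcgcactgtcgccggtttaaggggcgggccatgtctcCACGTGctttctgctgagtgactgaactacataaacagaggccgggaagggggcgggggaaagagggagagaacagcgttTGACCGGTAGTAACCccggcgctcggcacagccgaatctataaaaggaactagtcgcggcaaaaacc

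Motifs were searched on both strands in windows from 250 bases before to 50 bases after each start. CACGTG was present in 7.15% of the 32851 mouse promoters of that length, and TGACCGNNNNTAACC, written down after the Abca1 window had been seen, in 4 of them. The full direct repeat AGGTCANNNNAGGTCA was present in 5 of the 32851 promoters and in no member's window, and neither form overlaps CACGTG. The single site AGGTCA, which each arm of that repeat holds, is present in 16.3% of promoters and was found for Plin2. It lies in the 250 bases before the start, chr4:86670060-86670309 on the minus strand, and reads TGACCT along the gene. The searched window of Plin2, chr4:86670010-86670309, also holds CACGTG, which does not lie wholly within those 250 bases. Of the 7 members, 5 have an entry in the promoter table, and Nr1h2, Nr1h3 and Soat1 held none of these motifs. A match is a description of letters and says nothing about binding in these cells.

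The libraries held 13076 to 15138 barcodes and 45691141 to 81189155 UMIs (unique molecular identifiers, counted molecules), and 12301 to 14218 cells were kept. MAPS stood apart, with a median of 4465 UMIs per kept cell against 2422 to 2633, and 1.40% mitochondrial UMIs against 0.552 to 0.577%. The lowest barcode total was 500 UMIs in 3 libraries, but 1233 in IL-1a/TNFa/C1q EV. Pairs of libraries shared 43 to 64 barcodes, at most 0.453% of a library. Cells were assigned to 18 classes by counting how many of 8 marker genes per class were detected. Every class described below had all 8 of its own markers above 0. Cells with myeloid markers that no single myeloid class led were kept as unresolved myeloid cells.

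Plin2 was highest in macrophages and unresolved myeloid cells, several-fold above the other classes ranked. Class ranks here and below are among the 13 classes with at least 50 cells in each vesicle library. Levels are UMIs of the gene per 1000000 UMIs of a class in a library (CPM), and errors are the SD over the 3 vesicle libraries, which are 3 different treatments. Plin2 stood at 806 ± 143 CPM in border-associated macrophages, 721 ± 82.2 in monocytes/macrophages and 680 ± 45.1 in unresolved myeloid cells, and these overlapped. Microglia followed at 149 ± 8.10 CPM, above endothelial cells, which ranged from 79.9 to 108. That rank holds only for all gated microglia: in those lying in a microglial cluster Plin2 was 91.4, 81.2 and 90.2 CPM, inside the endothelial range. NK cells had the lowest mean, 27.5 CPM, between 16.7 and 48.1. After thinning each cell to 1000 UMIs, 39.6% of monocytes/macrophages in UT EV had a Plin2 UMI, 40.7% in IL-4/C1q EV, and 35.2% in IL-1a/TNFa/C1q EV. Oligodendrocytes, with median depths of 4182, 3906 and 3707 UMIs in that order against 5219, 4348 and 4430 in those macrophages, had shares of 1.49, 1.46 and 1.53%. MAPS had too few cells for macrophage or unresolved myeloid values: 31 monocytes/macrophages, 4 border-associated macrophages and 45 unresolved myeloid cells.

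The exporter genes were distributed differently from each other. Abca1 averaged 195 ± 44.0 CPM in unresolved myeloid cells, 174 ± 63.2 in border-associated macrophages, 154 ± 29.6 in microglia and 136 ± 24.3 in astrocytes, neighbours that did not separate beyond their spread. Monocytes/macrophages were below them at 97.7 ± 8.23 CPM, and T cells were lowest at 14.8 ± 3.49. Abcg1 averaged 109 ± 25 CPM in monocytes/macrophages and 102 ± 16.6 in unresolved myeloid cells. Oligodendrocytes followed at 79.6 ± 6.06 CPM and microglia at 62.5 ± 7.08, with no overlap between those 2 classes. Astrocytes, where Abca1 was high, had the lowest Abcg1 level of all 13 classes with at least 50 cells in each vesicle library, 6.34 ± 0.557 CPM.

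**Figure D1:**
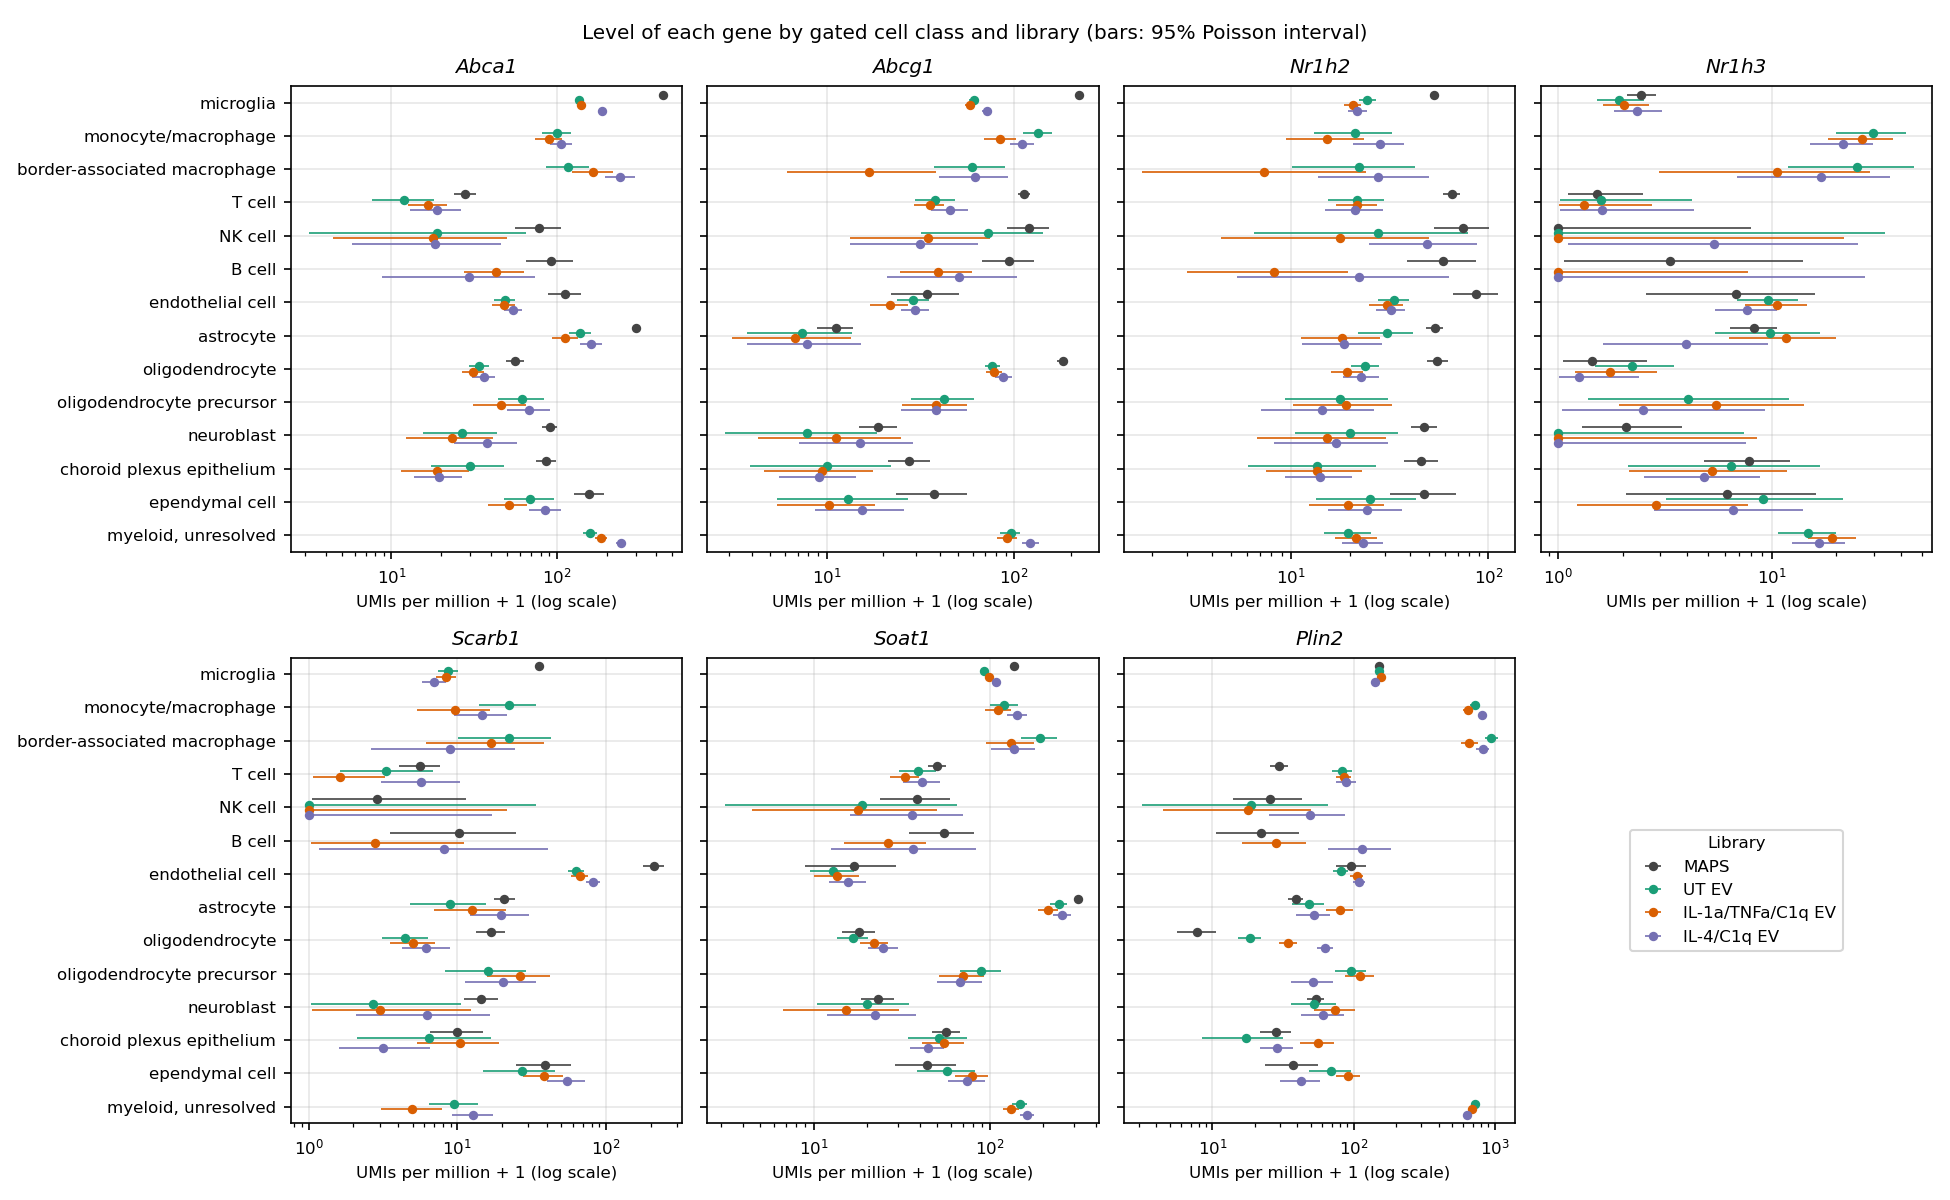
Level of each member by cell class, one panel per gene, as CPM + 1 on a log axis, with one point per library for classes of at least 50 cells. Plin2 sat highest in border-associated macrophages, monocytes/macrophages and unresolved myeloid cells. Soat1 sat highest in astrocytes, Scarb1 in endothelial cells and Nr1h3 in monocytes/macrophages. Nr1h2 varied less between classes than the other members.

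The 2 receptor genes also differed. Nr1h2 varied less between classes than the other members. It went from 12.7 ± 0.222 CPM in choroid plexus epithelium to 31.0 ± 1.38 in endothelial cells, with no overlap. Microglia were in the middle at 21.3 ± 1.98. Nr1h3 reached 24.8 ± 4.11 CPM in monocytes/macrophages, 16.4 ± 7.16 in border-associated macrophages and 15.8 ± 2.22 in unresolved myeloid cells. Microglia had 1.09 ± 0.212 CPM of Nr1h3, which rests on 15, 20 and 18 UMIs in UT EV, IL-4/C1q EV and IL-1a/TNFa/C1q EV, against 58 UMIs (1.45 CPM) in MAPS. Nr1h3 was thus near the limit of detection in microglia and plainly present in monocytes/macrophages and unresolved myeloid cells. In border-associated macrophages its level rests on fewer UMIs than in microglia. They held 3.49, 2.74 and 1.24% of the Nr1h3 UMIs of the vesicle libraries, in the same order. Microglia held 5.81, 9.13 and 7.47%.

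Soat1 and Scarb1 were led by cells other than phagocytes. Soat1 averaged 237 ± 22.3 CPM in astrocytes, with 313 in MAPS, and the macrophage classes and microglia followed between 98.8 and 152. Endothelial cells had the lowest Soat1 level, 13.1 ± 1.44 CPM. Scarb1 averaged 69.5 ± 9.95 CPM in endothelial cells and 38.8 ± 13.7 in ependymal cells, and the 2 ranges did not overlap. Microglia had 7.01 ± 0.910 CPM of Scarb1. Endothelial cells were 7.68 to 11.7% of kept cells in the vesicle libraries and 1.05% in MAPS. They supplied 38.0 to 50.4% of all Scarb1 UMIs in the vesicle libraries and 6.96% in MAPS. Microglial Scarb1 also differed, with 34.5 CPM in MAPS against 5.97 to 7.67 in the vesicle libraries. The part of cell number and of level in these shares was not tested.

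In microglia, the exporter genes, Nr1h2 and Scarb1 had lower CPM in all 3 vesicle libraries than in MAPS, while Soat1, Plin2 and Nr1h3 differed by less than 1.5-fold or within their intervals. Abca1 stood at 439 CPM in MAPS against 135 in UT EV, then 139 in IL-1a/TNFa/C1q EV, with 188 in IL-4/C1q EV. Abcg1 stood at 221, 59.9, 57.1 and 70.5 CPM in the same order. For both genes MAPS was far above the rest, and IL-4/C1q EV was the highest of the vesicle libraries. Scarb1 had 34.5 CPM in MAPS and 7.67, 7.37 and 5.97 in the vesicle libraries, and Nr1h2 had 52.3 against 23.5, 19.6 and 20.8. Soat1 was closer, 135 CPM against 91.4, 97.4 and 108. Plin2 was about level, 150 CPM against 151, 155 and 140.

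These differences lie inside a shift of the whole transcriptome. A gene is called here when its CPM ratio is at least 1.5-fold either way and the exact conditional binomial 95% interval, which covers counting error only, excludes 1, among genes with at least 50 UMIs over the 2 libraries. Over MAPS, 4 of 7 members were called lower and 0 higher in each vesicle library, where the background over all genes, in the order UT EV, IL-1a/TNFa/C1q EV, IL-4/C1q EV, was 64.3%, 68.4% and 66.4% lower and 11.2%, 11.6% and 10.2% higher. The count was 7 in UT EV for cells whose gate and cluster agree, and 7 in IL-1a/TNFa/C1q EV with clusters as classes. Shares over all genes are not given for these settings, so the counts of 7 have no background. The median gene stood at a log2 ratio of -1.06, -1.28 and -1.13 in that order, which is kept below. The median ran with transcript length, from 0.54, 0.65 and 0.45 in the shortest of 10 equal groups of genes by length to -1.45, -1.72 and -1.47 in the longest. Abca1, with a transcript of 10262 bases, and Soat1, with 8371 bases, fall in the longest group, and Abcg1, with 5832 bases, in the next. Depth, mitochondrial share and this length trend all separate MAPS from the others, and their part in the member ratios cannot be told apart from the treatment.

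Set against genes of like length, the members split into 3 kinds. Abca1 was at 0.308-fold in UT EV (0.294 to 0.322), 0.315-fold for IL-1a/TNFa/C1q EV (0.302 to 0.329), then 0.428-fold for IL-4/C1q EV (0.411 to 0.445) of the MAPS CPM. Centred on the median of its length group, Abca1 was 0.842, 1.04 and 1.18 in these libraries, so that its direction turned in the last 2. Abcg1 went from 0.271, 0.258 and 0.319 to 0.714, 0.806 and 0.836, and Nr1h2 from 0.448, 0.374 and 0.397 to 0.774, 0.698 and 0.741. Neither gene was called after centring. Scarb1 stayed lower, at 0.502, 0.550 and 0.410 after centring against 0.222, 0.214 and 0.173 before, and was called either way. Soat1, at 0.675, 0.719 and 0.795 before, was 1.85, 2.37 and 2.20 after, which turned it from lower to called higher in all 3. Plin2, with a transcript of 1888 bases, went from 1.01, 1.03 and 0.930 to 1.74, 1.93 and 1.74 and was called higher only after centring. That call is for all gated microglia. Those in a microglial cluster had Plin2 at 0.639, 0.568 and 0.631 before centring, and centred values were not read in them. The share of all genes called after length centring is not given here, so calls after centring have no background. Relative to the median gene alone, 1 member was called higher and 3 lower in UT EV, 2 and 2 in IL-1a/TNFa/C1q EV, and 3 and 1 in IL-4/C1q EV, against backgrounds in either direction of 53.8%, 56.2% and 51%.

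**Figure D2:**
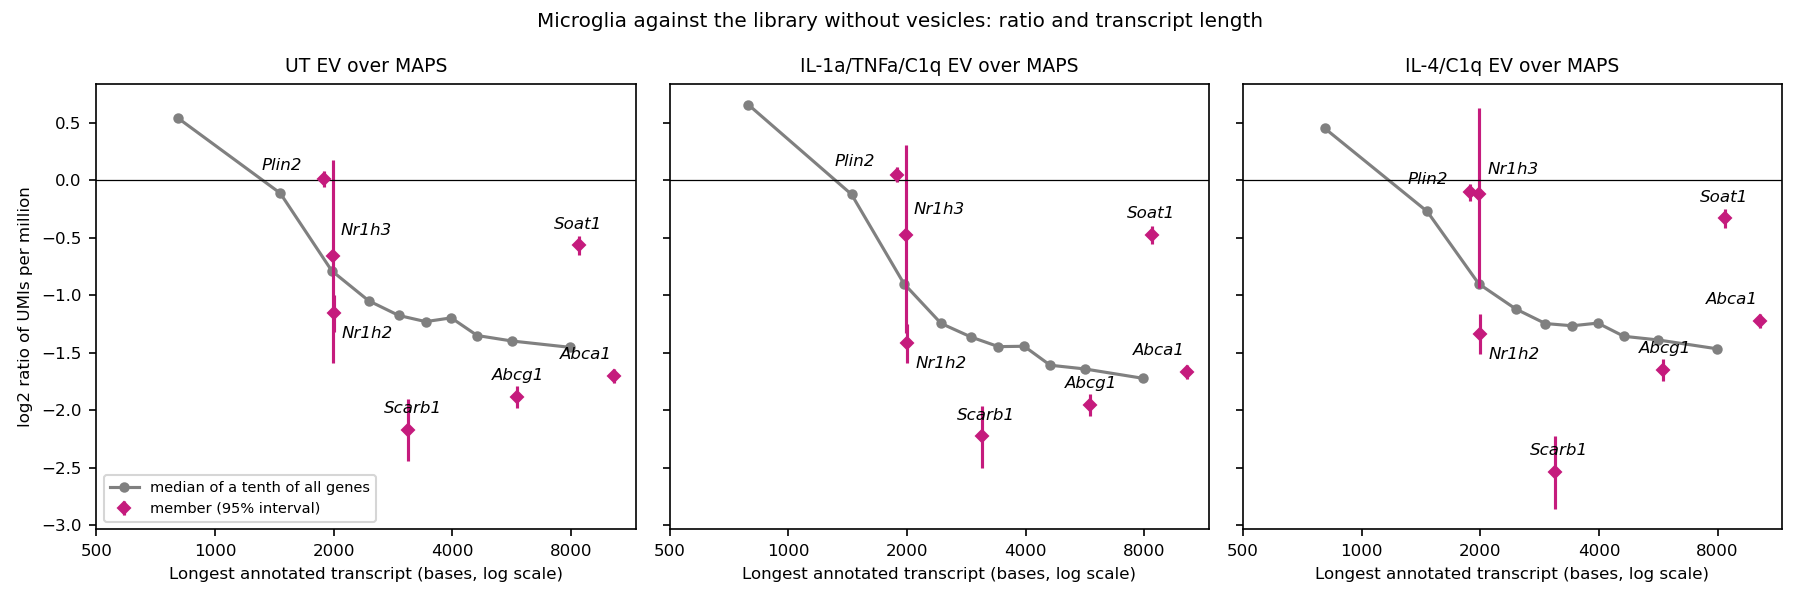
Log2 ratio over MAPS in all gated microglia against transcript length in bases (log axis), one panel per vesicle library. The line joins the medians of all tested genes in each of 10 length groups, and members are labelled points. The group medians fall from the shortest to the longest transcripts; Soat1 and Plin2 sit above the line, Scarb1 below it, and Abca1 near it, below in UT EV and slightly above in the other vesicle libraries.

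The near equality of Plin2 between MAPS and the vesicle libraries holds only for all gated microglia together. Of cells gated as microglia, 1.86% in MAPS against 13.4% in UT EV, then 19.9% in IL-1a/TNFa/C1q EV, with 15.7% in IL-4/C1q EV, lay in a cluster of another name or in an unnamed one. In those cells Plin2 stood at 391, 329, 295 and 277 CPM. In cells that lay in a microglial cluster it was 143 CPM in MAPS and 91.4, 81.2 and 90.2 in the vesicle libraries. The ratios over MAPS were therefore 0.639, 0.568 and 0.631 in those agreeing cells, as against 1.01, 1.03 and 0.930 in all gated microglia. Gated microglia also came from different clusters. In MAPS 4880 of 6837 lay in a cluster led by P2ry12, Slc2a5 and Tmem119 and 1726 in one led by Lpl and Cst7. In the vesicle libraries 50.5 to 52.0% lay in a cluster led by Ccl3, Ccl4 and Il1a and 20.8 to 26.1% in one led by Crybb1, Il1a and Ltc4s.

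Between the vesicle libraries, which had similar depth, Abca1 differed most in microglia among the 6 members with at least 50 UMIs. Its level of 188 CPM in IL-4/C1q EV was 1.39 times the UT EV level (1.32 to 1.47). Against the IL-1a/TNFa/C1q EV level it was 1.36 times (1.28 to 1.43). IL-1a/TNFa/C1q EV and UT EV were close, with a ratio of 1.02 (0.967 to 1.09). Against UT EV, where the length trend was nearly absent (-0.06 in the shortest and -0.02 in the longest group), the centred ratio was 1.41. Against IL-1a/TNFa/C1q EV the medians ran from -0.16 to 0.26, and centring brought Abca1 to 1.13. The ratio over UT EV lay between 1.39 and 1.44 under every scaling, gate, depth and doublet setting tried. After thinning to 1000 UMIs, an Abca1 UMI was found in 11.9% of microglia of UT EV, 12.6% for IL-1a/TNFa/C1q EV, 16.5% for IL-4/C1q EV and 30.4% for MAPS. T cells of the same libraries, at median depths of 2038, 1840.5, 1948 and 4512 UMIs against 2721, 2399, 2462 and 4566 in microglia, had shares of 1.04, 1.70, 1.46 and 2.57%. Before thinning the microglial shares were 32.0, 30.6, 37.2 and 73.5%.

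The remaining members moved less between the vesicle libraries. Of the 6 members with enough UMIs in microglia, 0 were called in any of the 3 comparisons, where the background in either direction was 7.06% for IL-1a/TNFa/C1q EV over UT EV, 5.51% for IL-4/C1q EV over UT EV and 8.29% for IL-4/C1q EV over IL-1a/TNFa/C1q EV. Nr1h3 was the member left out for low counts. Over UT EV, IL-4/C1q EV had Abcg1 at 1.18-fold (1.08 to 1.29) and Soat1 at 1.18-fold (1.10 to 1.26), intervals above 1 for both. Plin2 was at 0.922-fold (0.870 to 0.978), just below 1. Scarb1 at 0.778-fold (0.587 to 1.03) and Nr1h2 at 0.885-fold (0.760 to 1.03) were not distinguishable from equality at this depth. Over IL-1a/TNFa/C1q EV, Abcg1 was at 1.23-fold (1.13 to 1.35), with 1.05 after length centring, and Soat1 at 1.10-fold (1.03 to 1.18), which turned to 0.922. IL-1a/TNFa/C1q EV over UT EV gave ratios between 0.835 (Nr1h2, 0.720 to 0.969) and 1.07 (Soat1, 0.993 to 1.14).

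**Figure D3:**
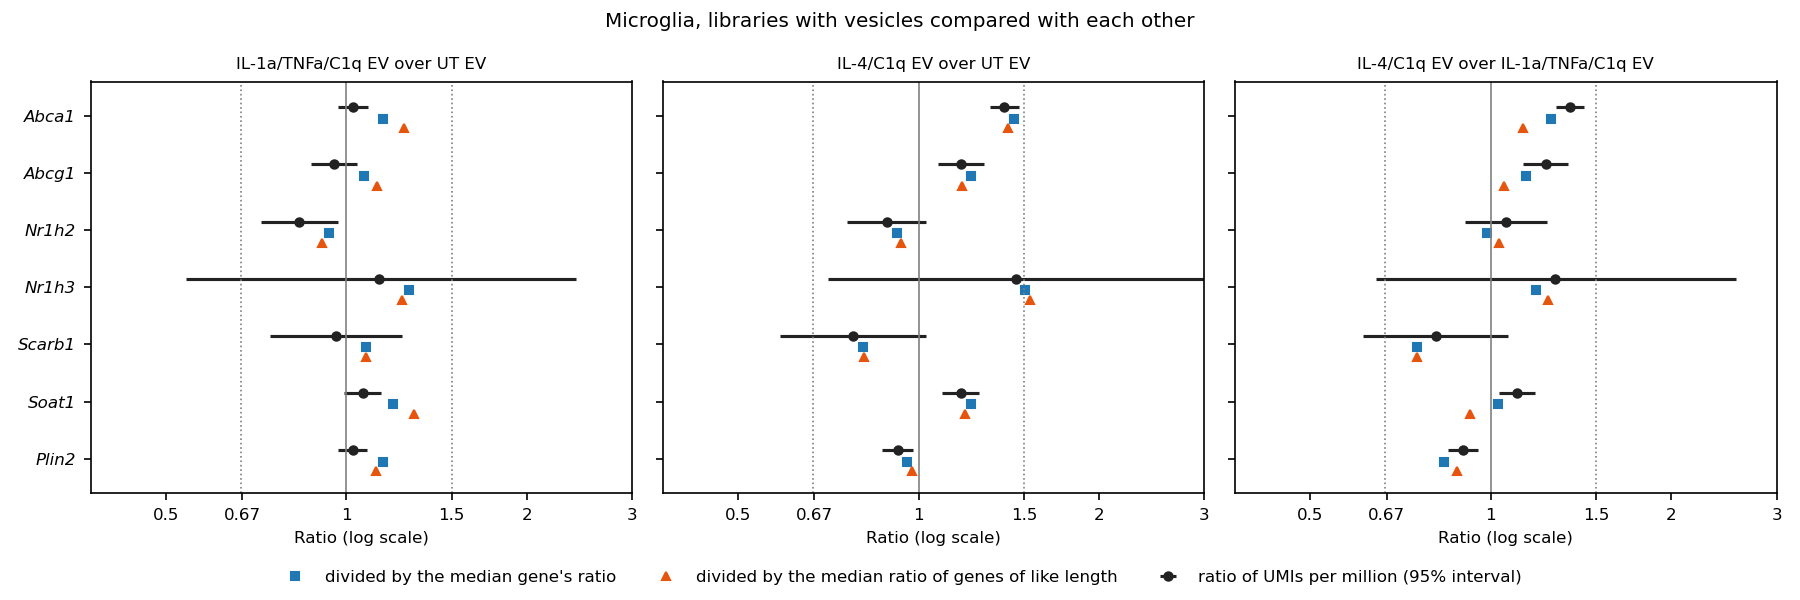
CPM ratio of each member in microglia for the 3 comparisons among vesicle libraries (log axis), with exact 95% counting intervals, and the same ratio relative to the median gene and centred on genes of like length. Abca1 lies highest in IL-4/C1q EV over UT EV under all 3 scalings, at 1.39, 1.44 and 1.41, while in IL-4/C1q EV over IL-1a/TNFa/C1q EV it drops to 1.13 after length centring.

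The Abca1 ratio of IL-4/C1q EV over UT EV was also read in the other classes. It was called in border-associated macrophages, 2.08-fold (1.43 to 3.05), where 12.7% of all genes were called in either direction and 6.22% higher. That value rests on 91 against 44 UMIs from 99 and 79 cells, or 242 against 116 CPM, and was 4.23 after thinning. In unresolved myeloid cells it was 1.55-fold (1.37 to 1.75), 244 against 158 CPM, and called, where 10.4% of genes were called and 6.63% higher. That call was lost with length centring (1.38), with thinning (1.33) and with a stricter gate (1.37). Monocytes/macrophages gave 1.06-fold (0.817 to 1.37), which turned to 0.957 with length centring, at 105 against 99.3 CPM, with 11.9% of genes called. Astrocytes gave 1.17-fold (0.935 to 1.45), endothelial cells 1.12-fold (0.918 to 1.38) and oligodendrocytes 1.07-fold (0.854 to 1.34). Intervals in these 4 classes include 1, and whether they differ from microglia was not tested. In T cells Abca1 was 17.8 CPM in IL-4/C1q EV against 10.9 in UT EV. Among the vesicle libraries neuroblasts were highest in IL-4/C1q EV, at 37.1 CPM. Choroid plexus epithelium went the other way and was highest in UT EV, at 28.8 CPM. No interval is given here for T cells, neuroblasts and choroid plexus epithelium. The markers of microglia, summed, reached 27.8 to 31.2% of their microglial level in unresolved myeloid cells, 9.97 to 16.6% in border-associated macrophages and 5.52 to 6.91% in monocytes/macrophages.

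Within microglia the Abca1 ratio of IL-4/C1q EV over UT EV was above 1 in each subset read, with an interval across 1 in the small state-positive subset (1.16, 0.809 to 1.64). IL-4/C1q EV was set apart by 1042 microglia with at least 3 of 5 interferon-response genes (Ifit3, Ifitm3, Irf7, Isg15 and Bst2) detected after thinning to 1000 UMIs, 7.66% of its kept cells, against 101 in UT EV and 96 in IL-1a/TNFa/C1q EV. In interferon-negative microglia Abca1 was 186 CPM in IL-4/C1q EV and 136 in UT EV, 1.37-fold (1.29 to 1.45). In interferon-positive microglia it was 197 against 103 CPM, 1.91-fold (1.40 to 2.67), on 655 and 43 UMIs, and called, with 3.01% of genes called higher. Within IL-4/C1q EV itself, interferon-positive microglia had 1.06-fold the Abca1 of the negative ones (0.972 to 1.16). In microglia with UMIs of both Saa3, an acute-phase gene, and Apoc1 the ratio over UT EV was 1.35-fold (1.18 to 1.54), and in the others 1.39-fold (1.31 to 1.48). Microglia not in the state defined by Spp1, Gpnmb, Cst7, Itgax and Clec7a gave 1.40-fold (1.32 to 1.48).

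**Figure D4:**
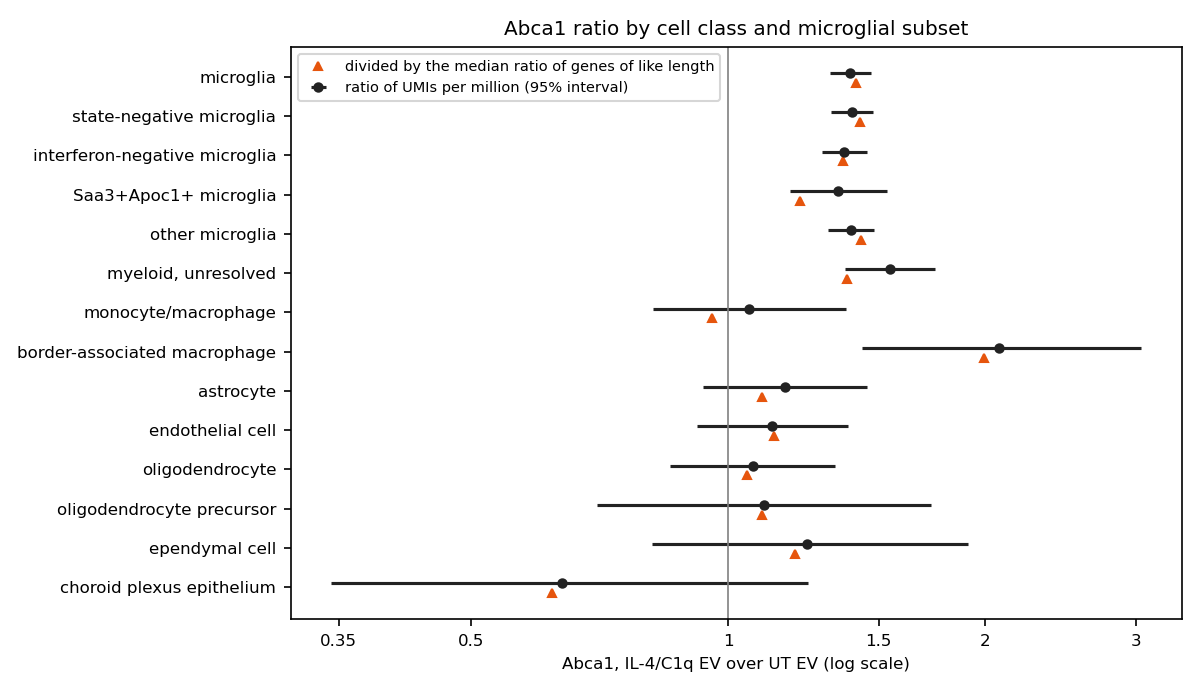
Abca1 CPM in IL-4/C1q EV over UT EV (log axis) in microglia, microglial subsets and selected other classes, with exact 95% counting intervals. Microglia and the subsets shown lie at 1.35 or slightly above, and border-associated macrophages at 2.08. Monocytes/macrophages, astrocytes, endothelial cells and oligodendrocytes have intervals that include 1, and choroid plexus epithelium lies below 1. The interferon-positive subset (1.91) and the small state-positive subset (1.16, 0.809 to 1.64) are not shown.

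Among gated microglia of one library, Plin2 and Abcg1 were higher in cells marked by Saa3 and Apoc1, and in the vesicle libraries most of those cells lay outside the microglial clusters. Saa3, an acute-phase protein gene, and Apoc1, an apolipoprotein gene, were both detected in 50 microglia of MAPS, 325 of UT EV, 408 of IL-4/C1q EV and 727 of IL-1a/TNFa/C1q EV. Plin2 in these cells against other microglia was 303 against 148 CPM in MAPS, 290 against 130 in UT EV, 288 against 116 in IL-1a/TNFa/C1q EV and 281 against 116 in IL-4/C1q EV. The ratios were 2.04 (1.75 to 2.38), 2.22 (2.03 to 2.44), 2.49 (2.31 to 2.69) and 2.42 (2.20 to 2.66). Plin2 was thus called higher in Saa3+Apoc1+ microglia of all 4 libraries, where the background of genes called higher was 2.83%, 2.37%, 2.51% and 2.45%.

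Abcg1 gave 418 against 218 CPM in MAPS, 105 against 53.0 in UT EV, 89.4 against 47.5 in IL-1a/TNFa/C1q EV and 121 against 62.1 in IL-4/C1q EV. Its ratios of 1.92, 1.99, 1.88 and 1.95 were all called. Abca1 was higher by 1.63, 1.47, 1.64 and 1.42, called in MAPS and IL-1a/TNFa/C1q EV. Soat1 was at 1.11, 1.15, 1.49 and 1.24, never called. Nr1h2 was at 0.819, 0.873, 0.809 and 0.762 and Scarb1 at 0.744, 0.824, 0.659 and 0.590, each with an interval that includes 1 in every library. Scarb1 turned above 1 after thinning in MAPS (1.13) and UT EV (1.41).

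Saa3+Apoc1+ microglia were deeper, with a median of 11143.5 UMIs against 4550 in MAPS, 6123 against 2650.5 in UT EV, 4879 against 2257 in IL-1a/TNFa/C1q EV and 4817.5 against 2386.5 in IL-4/C1q EV. The all-gene median log2 ratio was -0.31, -0.49, -0.45 and -0.39. Apoe alone held 121528 CPM in them against 43737 in other microglia of MAPS, and 214250 against 63286 in UT EV. With every cell thinned to 1000 UMIs, Plin2 was at 3.28, 2.52, 2.72 and 2.19, Abcg1 at 2.86, 1.78, 1.69 and 2.24, and Abca1 at 1.94, 1.44, 1.72 and 1.34. What depth adds beyond the thinned values was not tested.

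Most Saa3+Apoc1+ microglia of the vesicle libraries lay in a cluster of another name or in an unnamed one: 79 of 325 in UT EV, 171 of 727 in IL-1a/TNFa/C1q EV, 104 of 408 in IL-4/C1q EV and, by contrast, 48 of 50 in MAPS lay in a microglial cluster. Over those cells alone, with other microglia held to the same clusters, Plin2 was at 2.08 in MAPS (1.77 to 2.44), 1.28 in UT EV (0.897 to 1.76), 1.72 for IL-1a/TNFa/C1q EV (1.36 to 2.16) and 1.59 for IL-4/C1q EV (1.17 to 2.12), no longer called in UT EV. Abcg1 was at 1.86 in MAPS (1.62 to 2.13), 1.77 in UT EV (1.15 to 2.63), 1.49 for IL-1a/TNFa/C1q EV (1.04 to 2.07) and 1.05 for IL-4/C1q EV (0.629 to 1.66), called in MAPS and UT EV only. Abca1 was at 1.68, 1.40, 1.16 and 1.12 in that order, called in MAPS only, with intervals across 1 in the last 2. This restriction was added after seeing the data, and no share of all genes called is given for it. The 8 monocyte/macrophage markers summed to 404 CPM in Saa3+Apoc1+ microglia against 217 in the others in MAPS, 635 against 221 in UT EV, 809 against 270 for IL-1a/TNFa/C1q EV and 723 against 303 for IL-4/C1q EV. Monocytes/macrophages themselves had 3379 to 5594 CPM of these markers, and 0 to 2 of the 8 were at 0 in Saa3+Apoc1+ microglia. The 8 microglial markers stood there at 57.7 to 64.1% of their level in all microglia. The part of macrophage RNA or of misgated cells in the Plin2, Abcg1 and Abca1 ratios was not tested.

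**Figure D5:**
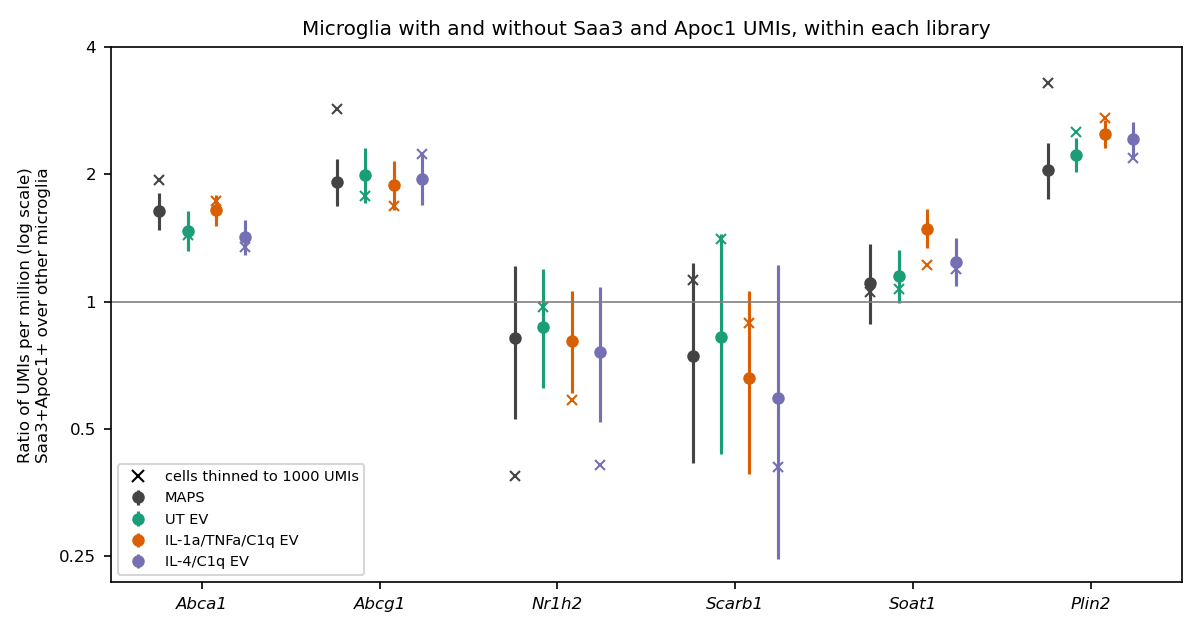
CPM ratio of Saa3+Apoc1+ over other microglia for 6 members within each of the 4 libraries (log axis), with exact 95% counting intervals and crosses for cells thinned to 1000 UMIs. Plin2 lies between 2.04 and 2.49 and Abcg1 between 1.88 and 1.99, Abca1 is above 1 in each library; held to cells in microglial clusters, Plin2 fell short of a call in UT EV and Abcg1 in IL-1a/TNFa/C1q EV as well as IL-4/C1q EV, and Nr1h2 and Scarb1 have intervals across 1, with thinned Scarb1 above 1 in MAPS and UT EV.

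The state defined by at least 3 of Spp1, Gpnmb, Cst7, Itgax and Clec7a detected after thinning sorted the members less evenly. It held 405 microglia in MAPS and 110, 117 and 80 in the vesicle libraries. These cells were deeper than state-negative microglia, with a median of 10717 against 4489 UMIs in MAPS and 6343.5 against 2734 in UT EV. The medians were 6627 against 2380 in IL-1a/TNFa/C1q EV and 5993 against 2472 in IL-4/C1q EV. Ratios in this split are given without intervals, thinned values or a background. Plin2 in these cells over state-negative microglia was 2.38 in MAPS, 1.44 in UT EV, 1.51 in IL-4/C1q EV and 1.17 in IL-1a/TNFa/C1q EV. Abca1 was 1.30 in MAPS but 0.763 in UT EV, 0.631 in IL-4/C1q EV and 0.868 in IL-1a/TNFa/C1q EV. Whether MAPS and the vesicle libraries differ in this respect was not tested.

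Cells gated as T cells had a higher Plin2 level in each vesicle library than in MAPS, but they lay in different clusters. In MAPS 1136 of 1176 lay in a cluster led by Trac, Cd8a and Cd6, while in the vesicle libraries 65.3 to 74.6% lay in one led by Il17a, Tnfrsf4 and Areg and 24.2 to 32.6% in the NK cluster. A change within T cells and a change of T cell populations therefore cannot be told apart here. The level was 28.6 CPM in MAPS (24.4 to 33.2) against 81.8 in UT EV (68.9 to 96.4), 87.2 in IL-4/C1q EV (73.6 to 102) and 84.4 in IL-1a/TNFa/C1q EV (74.6 to 95), with no overlap between MAPS and the others. The ratios of 2.86, 3.05 and 2.95 were called, where 13.7%, 12.7% and 14.8% of genes were called higher, and they lay between 2.71 and 6.09 over all settings. Plin2 was the 1 member of 5 tested that was called higher there, while Abca1, Abcg1 and Nr1h2 were called lower in each, and Soat1 in IL-1a/TNFa/C1q EV as well, with backgrounds of 54.2%, 57.1% and 61%. Abca1, at 0.405, 0.658 and 0.578, turned to 1.63 and 1.74 with length centring in the last 2, and Soat1 from 0.648 to 1.95. After thinning, 2.57% of T cells in MAPS, 6.78% in UT EV, 7.16% in IL-4/C1q EV and 6.6% in IL-1a/TNFa/C1q EV had a Plin2 UMI. Oligodendrocytes, at median depths of 7153, 4182, 3906 and 3707 UMIs against 4512, 2038, 1948 and 1840.5 in T cells, had shares of 0.340, 1.49, 1.46 and 1.53%. Oligodendrocytes in a cluster of their own name had 6.23 CPM of Plin2 in MAPS and 13.5 to 15.1 in the vesicle libraries. The summed microglial markers in T cells were 416 CPM in MAPS and 156 to 175 in the vesicle libraries, or 2.93% and 2.26 to 2.48% of their level in microglia of the same library. The markers of border-associated macrophages summed to 11.4 CPM in T cells of MAPS and 17.3 to 42.7 in the vesicle libraries, with 2 to 4 of the 8 at 0. Those of monocytes/macrophages, which include Ccr2, Ly6c2 and Plac8, genes that T cells also express, summed to 2321 CPM and 510 to 880. How much free RNA adds to Plin2 in T cells was not tested.

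Endothelial Scarb1, like that of microglia, had a lower level in the vesicle libraries than in MAPS, although IL-4/C1q EV was the highest of the 3 in endothelial cells and the lowest in microglia. Of the gated endothelial cells, 94 of 138 in MAPS lay in a cluster led by Adgrf5, Ptprb and Spock2, and 88.4 to 92.3% in the vesicle libraries in one led by Srarp, Tmem252 and Cldn5, so population and level cannot be told apart. Scarb1 stood at 208 CPM in MAPS, on 138 cells, and, in the order UT EV, IL-1a/TNFa/C1q EV, IL-4/C1q EV, 62.0, 65.7 and 80.7 in the vesicle libraries, ratios of 0.297 (0.240 to 0.369), 0.315 (0.254 to 0.392) and 0.387 (0.318 to 0.474). With length centring they were 0.517, 0.596 and 0.687, called in the first and second but not in IL-4/C1q EV, again without a background. In each vesicle library 3 of 6 tested members were called lower in endothelial cells, where the background was 49.3%, 53.1% and 49.6%. Abca1 was called lower there, at 0.427, 0.420 and 0.480, and turned to 1.03, 1.23 and 1.15 with length centring. Soat1 in astrocytes was 313 CPM in MAPS and 243, 212 and 255 in the vesicle libraries, ratios of 0.778, 0.678 and 0.816 that turned to 1.87, 1.95 and 1.78 with length centring. Here too the cells lay in different clusters: 418, 482 and 747 of the 1731 astrocytes of MAPS lay in clusters led by Lhx2, Agt and Dclk1, and 93.3 to 96.8% of those in the vesicle libraries in one led by Cldn10 and Gfap.

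Several calls outside microglia rested on few cells. Plin2 in oligodendrocytes was 17.4 CPM in UT EV against 33.2 in IL-1a/TNFa/C1q EV, with 61.9 in IL-4/C1q EV, and the ratio of IL-4/C1q EV over UT EV, 3.56-fold (2.81 to 4.53), was called where 2.17% of genes were called higher. It came from 10 cells in clusters of another name at 1515 CPM in IL-4/C1q EV, against 17 such cells at 192 CPM in UT EV, and in the other oligodendrocytes it was 1.11. Plin2 in astrocytes, 1.67-fold in IL-1a/TNFa/C1q EV over UT EV (1.18 to 2.38) where 3.65% of genes were called higher, was 1.01 when gate and cluster agreed and 0.921 when classes were taken from clusters. In monocytes/macrophages Abcg1 was 133 CPM in UT EV against 83.2 in IL-1a/TNFa/C1q EV, 0.625-fold (0.478 to 0.816) on 126 and 105 UMIs, called where 9.64% of genes were called lower, a call lost with length centring (0.698). Nr1h2 there was 27.2 CPM in IL-4/C1q EV and 14.3 in IL-1a/TNFa/C1q EV, 1.90-fold (1.08 to 3.5) on 44 and 18 UMIs, where 12.4% of genes were called higher. Scarb1 in ependymal cells was 53.3 CPM in IL-4/C1q EV and 26.1 in UT EV, 2.04-fold (1.09 to 4.11) on 48 and 13 UMIs, where 3.01% of genes were called higher.

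The other genes of the pathway were read in microglia from 5 lists with 90 genes. Over UT EV, IL-4/C1q EV had 1 of 13 tested partners and targets of the liver X receptors called higher and 0 lower, with a list median of 0.13 against -0.05 for all genes. The called gene was Rxrg, a retinoid X receptor gene, at 9.55 against 4.14 CPM, 2.31-fold (1.72 to 3.12). None was called among 19 genes of cholesterol synthesis and uptake (median -0.20), 14 of droplet coat and turnover (-0.09) and 12 of lysosomal and oxysterol handling (0.08). Of 12 genes for lipid uptake and acceptors, 1 was called lower, Cd36, a fatty acid and oxidised lipoprotein receptor gene, at 1.13 against 3.23 CPM, 0.349-fold (0.190 to 0.613). Over all genes 5.51% were called in either direction in this comparison, and the list counts are read against that share.

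IL-1a/TNFa/C1q EV over UT EV gave 1 higher (Rxrg, 1.53-fold) and 2 lower of the 13 receptor partners and targets, where 7.06% of all genes were called in either direction. Among the lower ones, Abca7, a lipid transporter gene, was at 0.631, and 0 of the 13 were called lower relative to the median gene. Among 19 synthesis and uptake genes 3 were called lower and 0 higher, the 3 including Nsdhl, an enzyme of a late step, at 0.648 and Insig1, which holds back the activation of the pathway's transcription factors, at 0.663. None of these 19 was called relative to the median gene. Apoc1 was the 1 of 12 uptake and acceptor genes called, at 1.53-fold. None was called among 13 droplet and 12 lysosomal genes.

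IL-4/C1q EV over IL-1a/TNFa/C1q EV gave Abca7 at 1.89-fold and Rxrg at 1.51-fold as the 2 of 13 receptor partners and targets called, both higher, and Rxrg fell short relative to the median gene (1.40). Stard3, which moves cholesterol between late endosomes and other membranes, was the 1 of 12 lysosomal genes called, at 1.74-fold. Hilpda and G0s2, inhibitors of droplet lipolysis, were the 2 of 13 droplet genes called, at 0.579 and 0.632. Cd36, Apoc4 and Apoc1 were the 3 of 12 uptake and acceptor genes called, at 0.489, 0.623 and 0.638. Over all genes 8.29% were called in either direction in this comparison. Its median log2 ratio ran with length, from -0.16 in the shortest group to 0.26 in the longest. The list genes were not read after length centring, so the part of length in these calls was not tested. These comparisons share libraries pairwise and are not independent of each other.

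Over MAPS, most genes were lower (64.3%, 68.4% and 66.4% of all tested in the order UT EV, IL-1a/TNFa/C1q EV, IL-4/C1q EV), and the list counts are read against those shares. In UT EV 12 of 15 receptor partners and targets were called lower and 0 higher, with a median of -1.52 against -1.06 for all genes, and Srebf1, the lipogenic transcription factor gene, was at 0.221-fold. The synthesis list had 15 of 22 lower and 2 higher (median -1.0), the droplet list 10 of 15 and 2 (-1.09), and the lysosomal list 12 of 13 and 1 (-1.47). The uptake and acceptor list had 6 of 13 lower and 5 higher (-0.36), with Lpl, lipoprotein lipase, at 0.163-fold and Fabp4, a fatty acid binding protein gene, at 3.94-fold. IL-4/C1q EV gave 12 of 15, 16 of 23, 11 of 15, 11 of 13 and 8 of 13 lower for the same lists. IL-1a/TNFa/C1q EV gave 14 of 15, 19 of 22, 11 of 15, 11 of 13 and 8 of 13.

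Genes whose level ran most like each member across the 9 classes present in all libraries were named by Pearson's r of log2(CPM + 1) among 15758 genes. For Abca1 they were Cyfip1 (0.973), Fam217b (0.973) and Eepd1 (0.952), for Abcg1 Ldlrad4 (0.942), Blvra (0.929) and Dock10 (0.909), and for Scarb1 Cd151 (0.968), Stom (0.965) and Slc2a1 (0.956). Soat1 was followed by Acss1 (0.955), Med12l (0.928) and Gm45153 (0.917), and Plin2 by Clip1 (0.953), Gm43984 (0.942) and Pmepa1 (0.942). Nr1h2 was followed by Rbck1 (0.935), Max (0.924) and P2ry14 (0.918), and Nr1h3 by Mansc1 (0.970), Tpi1 (0.967) and Gulp1 (0.967). Monocytes/macrophages are not among the 9 classes, which limits these lists for Plin2 and Nr1h3. Over 39 points of 13 classes in the 3 vesicle libraries, Abca1 and Soat1 ran together at 0.761, Nr1h3 and Plin2 at 0.688, and Abca1 and Abcg1 at 0.248. Points of one library share its depth, and with 9 or 13 classes a high r is a description.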

How the data were processed

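Members and gene lists were chosen with earlier results of these data known. Values in the deposited files are UMI counts, whole numbers with no scaling. The matrix headers carry Cell Ranger 8.0.1. Per the submitters' processing notes, the tools were bcl2fastq 5.0.1, Seurat 4.1.0 and Cell Ranger 7.0.0, with build GRCm39. How multimapping or intronic reads were treated is not given in the sources used here. Libraries were Chromium 3′ v3, and tissue was depleted of dead cells, per the labels' protocols.

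Barcodes under 500 UMIs or 300 genes, or above 20% mitochondrial UMIs, were dropped, as were doublets called by scrublet in scanpy 1.11.5 (3.64 to 5.29%). A cell took the class with at least 3 of 8 markers detected and a lead of 2 markers. These thresholds and the gate for unresolved myeloid cells were set from cell numbers per gate after the data were at hand. Leiden clusters (resolution 1, 40 components, 15 neighbours, 3000 variable genes) served as an alternative. UMIs were summed per class and library. With 1 library per group no test was run. Levels carry exact Poisson, ratios exact conditional binomial and shares Clopper-Pearson 95% intervals, all for counting error only. The ratio and call steps were tested on simulated counts. Lengths (longest transcript per gene in GENCODE M21, GRCm38) and promoters come from the older build and were matched by identifier or symbol. All members are named. From each list at most 4 called genes with the largest ratio are named per comparison, and for each member the 3 genes most alike. TMM factors came from edgeR 4.0.16 in R 4.3.3, and all else from Python 3.11.15 with pandas 2.3.3, scipy 1.17.1 and numpy 2.4.6. Centring on the median gene, the cells whose gate and cluster agree, the interferon split and the Saa3 and Apoc1 split within microglia were added after seeing the data. Some genes of the pathway lists are not reported here.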

Additional observations from a re-analysis of the deposited data

How the results depend on the processing

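Each ratio was recomputed with TMM factors, length centring, cells thinned to 1000 UMIs, 1 lowest UMI total for all libraries, a stricter gate, clusters as classes, doublets kept, no minimum of UMIs (for counts of calls), and, added after seeing the data, centring on the median gene and cells whose gate and cluster agree. In microglia the members called between vesicle libraries stayed at 0 in each of these settings, and those called over MAPS were 3 to 7. The count over MAPS moved from 4 to 7 in UT EV with agreeing cells and from 4 to 7 in IL-1a/TNFa/C1q EV with clusters as classes. No share over all genes is given for these settings. Length centring turned Abca1 over MAPS in microglia (1.04 in IL-1a/TNFa/C1q EV, 1.18 in IL-4/C1q EV), endothelial cells (1.03, 1.15 and 1.23 in UT EV, IL-4/C1q EV and IL-1a/TNFa/C1q EV), astrocytes (1.10, 1.17 and 1.07), oligodendrocytes (1.40, 1.44 and 1.56) and T cells (1.63 and 1.74 in the last 2), Abcg1 in oligodendrocytes (1.02 and 1.11 in the last 2) and Soat1 in T cells (1.95 in IL-1a/TNFa/C1q EV). Centring on the median gene turned Abca1 in T cells (1.25 and 1.19), Abca1 in oligodendrocytes of IL-4/C1q EV (1.05) and Soat1 in T cells of IL-1a/TNFa/C1q EV (1.34, and 1.03 with TMM factors). Soat1 in microglia and astrocytes was not called over MAPS before centring. It also turned from lower to higher with length centring in each vesicle library, at the values given above. Turns of ratios that were not called are not all listed here. Among vesicle libraries, Plin2 turned in astrocytes (IL-1a/TNFa/C1q EV over UT EV 0.921 with clusters, IL-4/C1q EV over IL-1a/TNFa/C1q EV 1.22 with agreeing cells), in oligodendrocytes (over UT EV 0.957 in IL-4/C1q EV and 0.907 in IL-1a/TNFa/C1q EV with clusters, and 0.980 for IL-4/C1q EV over IL-1a/TNFa/C1q EV with thinning) and in oligodendrocyte precursors (IL-4/C1q EV over UT EV 1.05 with the stricter gate and 1.15 with agreeing cells, over IL-1a/TNFa/C1q EV 1.24 with thinning). Soat1 in oligodendrocytes, IL-4/C1q EV over UT EV, went to 0.756 with thinning. The causes were not tested. Held to cells in microglial clusters, the Saa3 and Apoc1 split lost the Plin2 call in UT EV (1.28), the Abcg1 calls in IL-1a/TNFa/C1q EV (1.49) as well as IL-4/C1q EV (1.05), and the Abca1 call in IL-1a/TNFa/C1q EV (1.16). No paired analysis was possible because each group is 1 library. Classes under 50 cells, and Nr1h3 in microglia, are too shallow for a ratio between vesicle libraries.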
